A study of Mus musculus with 2 samples.

Results

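Genes of the cellular response to low oxygen that lie outside glycolysis were examined in uterine stromal cells, the connective tissue cells under the uterine epithelium that decidualize around an implanting embryo. The 9 genes were chosen by name (Bnip3, Bnip3l, Ndrg1, Ddit4, Bhlhe40, Kdm3a, Higd1a, Mxi1 and Ankrd37), and every probe set that the platform annotation gives to 1 of them alone was taken. A probe set is a group of short array probes designed against the same transcript. This gave 14 probe sets for 7 genes, of 20380 such probe sets for 12393 genes in all. The 3 probe sets of Bnip3l are also annotated to a second gene, so no value is given for it. No probe set with the symbol Ankrd37 was found, and that gene was not analysed here.

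Cells were digested from the uterine horns of pregnant mice on day 5, counted from the vaginal plug as day 1, and pools of 3 animals per genotype each went onto 1 Affymetrix array, the Mouse Genome 430A 2.0. The control array comes from mice titled Hif1 flox and given the genotype Hif2 alpha-intact. The other array comes from mice titled Hif1 cKO and given the genotype Hif2 alpha-null. The breeding note names Hif1 floxed mice crossed with PRcre mice and an ablation of Rac1. The labels thus name 3 different target genes, and the second array is called knockout-labelled throughout. PRcre mice carry a Cre recombinase driven by the progesterone receptor gene, which is also active in uterine cells other than stroma. Whether the controls carry Cre, and the strain and age of the mice, are not stated in the labels.

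In low oxygen the hydroxylases that mark the HIF alpha subunits for destruction lose activity, the subunits accumulate, pair with ARNT and bind short DNA elements near their target genes. HIF1 alpha and HIF2 alpha (encoded by Epas1) share many targets and differ in others. Those outside glycolysis save oxygen and energy: they remove mitochondria, tune the respiratory chain, brake growth signalling, and reset transcription and chromatin. The implantation site at this stage is a tissue of fast growth and new vessels, where HIF2 alpha is known to act in stroma.

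The start-site windows of the genes are printed to show the short DNA core bound by HIF, which the choice by name did not read. The genes were chosen as hypoxia-responsive targets, so sites of this core are not independent of the choice. The core was searched as ACGTG or GCGTG on both strands, so that CACGT and CACGC are its other strand. Overlapping matches were counted as 1 site. The sequences are the 250 bases before a gene's start, from RefSeq on GRCm38.p6, read 5′ to 3′ on the gene's own strand, with each site in capitals. Of the 9 genes 6 had a window in RefSeq's set. The 5 windows shown belong to the measured genes and each holds a site. Bnip3 is at chr7:138909507-138909756 (minus strand), Ddit4 at chr10:59951771-59952020 (minus strand), Higd1a at chr9:121857797-121858046 (minus strand), Kdm3a at chr6:71632918-71633167 (minus strand) and Mxi1 at chr19:53329163-53329412 (plus strand).
Bnip3: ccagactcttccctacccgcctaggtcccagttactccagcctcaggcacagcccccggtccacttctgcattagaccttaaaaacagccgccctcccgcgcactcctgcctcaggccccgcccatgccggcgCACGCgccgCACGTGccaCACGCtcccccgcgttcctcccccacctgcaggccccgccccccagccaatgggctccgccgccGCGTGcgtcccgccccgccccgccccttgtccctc
Ddit4: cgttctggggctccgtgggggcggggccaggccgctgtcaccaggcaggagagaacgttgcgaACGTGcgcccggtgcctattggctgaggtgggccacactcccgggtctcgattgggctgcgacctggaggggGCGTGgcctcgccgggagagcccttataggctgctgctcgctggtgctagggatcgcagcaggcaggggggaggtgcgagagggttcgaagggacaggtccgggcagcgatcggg
Higd1a: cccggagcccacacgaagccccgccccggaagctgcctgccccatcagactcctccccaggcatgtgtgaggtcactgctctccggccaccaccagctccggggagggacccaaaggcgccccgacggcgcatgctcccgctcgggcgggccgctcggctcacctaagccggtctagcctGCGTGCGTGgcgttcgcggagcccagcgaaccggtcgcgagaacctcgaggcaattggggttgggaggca
Kdm3a: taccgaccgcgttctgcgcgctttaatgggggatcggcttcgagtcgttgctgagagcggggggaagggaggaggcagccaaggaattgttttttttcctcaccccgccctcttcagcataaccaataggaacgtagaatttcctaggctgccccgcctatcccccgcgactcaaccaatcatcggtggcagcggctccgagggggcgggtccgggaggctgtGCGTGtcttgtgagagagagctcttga
Mxi1: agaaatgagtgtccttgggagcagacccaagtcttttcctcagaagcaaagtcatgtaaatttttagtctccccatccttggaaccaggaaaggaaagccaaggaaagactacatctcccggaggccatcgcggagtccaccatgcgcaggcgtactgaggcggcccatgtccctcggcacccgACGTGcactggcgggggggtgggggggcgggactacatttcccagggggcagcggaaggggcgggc

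The window of Bnip3 holds 4 sites, which begin 117, 108, 99 and 35 bases before the start. The site at 108 bases is CACGTG, which reads as the core on both strands and is also the E-box bound by the MYC, MAX and BHLHE40 families of factors. That E-box stands in 6.02% of all windows. Ddit4 holds 2 sites, at 187 and 115 bases. Higd1a holds 1, at 70 bases, made of 2 overlapping matches. Kdm3a has 3 windows in the table, of which the one shown holds 1 site at 27 bases and the other two hold none. Mxi1 also has 3 windows. The one shown holds 1 site at 66 bases, the most upstream holds none, and the last, with 1 site at 25 bases, lies downstream of the start shown. Ankrd37, which was not measured, holds 3 sites.

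All 6 genes with a window had at least 1 site in at least 1 window, and 3 of the 6 had 2 or more. Over the 27025 genes of the table these shares were 41.5% and 15.2%. The member windows run from 48.4% to 77.2% G and C, where the median of all windows is 52.4%. Among the 21306 windows of at least 48.4% G and C, 49.2% hold a site, which is a share per window and not per gene. Counted in the same way, 7 of the 10 member windows hold a site. Those 7 run from 59.6% to 77.2% G and C, and 48.4% is that of a Kdm3a window without a site. The 21306 windows thus include some poorer in G and C than any of the 7. A match of 5 letters is a description of the window and no evidence of binding.

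Log2 ratios were taken as the knockout-labelled array minus the control, after signals below 19.7, the 40th percentile of both arrays pooled, were raised to that floor. No gene reached a 2-fold difference at its brightest probe set, and the log2 ratios of the 7 genes ran from -0.52 to 0.96. With 1 array per group there was no replicate and no test, so each value describes these 2 arrays. As a measure of error, the 2 brightest probe sets of the same gene were set against each other, which gave an SD of 0.64 per log2 ratio (2660 genes). It holds no spread among animals or among repeated pools and hybridizations. Of the 7 genes 6 had a log2 ratio smaller than this SD, where 59.5% of all genes did. The SD is also blind to any steady offset of a gene's brightest probe set from its next one. With that offset kept in, the root mean square on the same scale was 0.70 (2660 genes), and 6 of the 7 genes lay within it.

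**Figure D1:**
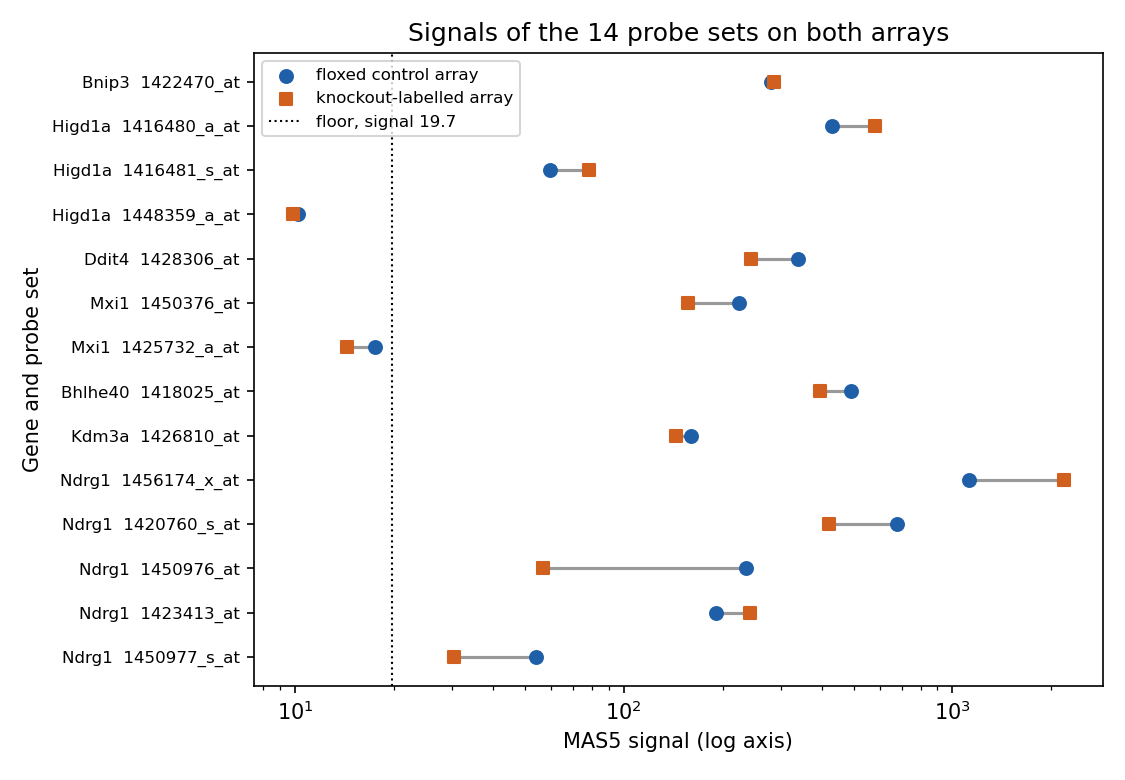
MAS5 signal (log axis) of the 14 probe sets of the 7 genes on the control array (blue circles) and the knockout-labelled array (orange squares), joined by a grey line; the dotted line is the floor at 19.7. Most pairs lie close together, the 5 probe sets of Ndrg1 shift in both directions, and 2 probe sets lie below the floor on both arrays.

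Of the genes that act at mitochondria, Bnip3 had almost the same signal on both arrays and Higd1a was somewhat brighter on the knockout-labelled one. Bnip3 encodes an outer membrane protein that recruits autophagosomes to mitochondria. Its only probe set read 279.5 in controls and 286.7 on the knockout-labelled array, for a log2 ratio of 0.04. Among the measured genes with a window it had both the most sites and the log2 ratio nearest to 0. Whether the number of sites and the log2 ratio are related was not tested.

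Higd1a encodes a small inner membrane protein that binds cytochrome c oxidase. At its brightest probe set (1416480_a_at) the signals were 431 and 582 on the control and knockout-labelled arrays, a log2 ratio of 0.43. At a dimmer one (1416481_s_at) they were 59.6 and 78.2, a log2 ratio of 0.39. These log2 ratios lie 0.04 apart, and of the 2096 genes with exactly 2 measured probe sets 3.91% had values that close. The closeness was noticed after the values were seen, and both ratios are smaller than the probe set SD. The remaining probe set (1448359_a_at) had signals of 10.2 and 9.84, below the floor on both arrays.

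The gene that brakes growth signalling was dimmer on the knockout-labelled array, by less than the probe set SD. Ddit4, also called REDD1, acts through the TSC1 and TSC2 complex to hold down the growth kinase complex mTORC1. Its probe set read 339 in controls and 244 on the knockout-labelled array, for a log2 ratio of -0.47, or 1.39-fold lower. Ddit4 is also known to be induced by glucocorticoids and by stress of many kinds.

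The 3 genes of transcription and chromatin were all dimmer on the knockout-labelled array, again by less than the probe set SD. Mxi1 encodes a MAX partner that opposes MYC. Its brightest probe set (1450376_at) gave 224 and 156, a log2 ratio of -0.52, the lowest among the brightest probe sets of the 7 genes. Its other probe set (1425732_a_at) had signals of 17.5 and 14.4, below the floor on both arrays. Bhlhe40 encodes a repressor of E-box genes that is tied to the circadian clock, and its probe set gave 491 and 396, a log2 ratio of -0.31. Kdm3a encodes a histone H3 lysine demethylase of the JmjC type, an enzyme class that itself uses oxygen. Its probe set gave 160 and 144, a log2 ratio of -0.15. That sign turned positive after quantile normalization and after centring each array on its median.

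Ndrg1, a cytoplasmic protein of stress and differentiation, was the member whose probe sets disagreed. At the brightest (1456174_x_at) the signals were 1119 in controls and 2183 on the other array, for a log2 ratio of 0.96, or 1.95-fold higher. At the next (1420760_s_at) they were 676 and 422, a log2 ratio of -0.68. The third by mean log2 signal (1423413_at) gave 190.6 and 242, a log2 ratio of 0.35. Thus 2 of the 3 brightest were higher and 1 was lower.

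The other two were both lower on the knockout-labelled array. Probe set 1450976_at read 235.5 in controls and 56.8 on the other array, for a log2 ratio of -2.05, or 4.14-fold lower. Probe set 1450977_s_at gave 54.2 and 30.5, a log2 ratio of -0.83. The 5 probe sets therefore span 3.01 on the log2 scale. Over the 118 genes with at least 5 measured probe sets the median span was 1.68, and 2 of them, Ndrg1 included, spanned that much or more. In 44 of these 118 genes 1 probe set was 2-fold or more lower while another was higher.

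The direction of Ndrg1 was thus not settled, and its 0.96 enters the counts and the median of the 7 genes only as the value of the brightest probe set. A suffix _s_at marks probes that can match several transcripts and _x_at probes that can match unrelated ones. Without such probe sets, 1423413_at (0.35) and 1450976_at (-2.05) remain, and they still have opposite signs. The positions of these probes along the transcript were not analysed here. The arrays differed in how evenly transcripts were covered: the 3′ to 5′ signal ratio of the b-actin control probe sets was 2.27 in controls and 16.0 in the knockout-labelled RNA. Gapdh gave 1.49 and 7.25, and 18S rRNA gave 0.449 and 1.29. The pyruvate carboxylase and transferrin receptor controls were below the floor at their 5′ probe sets on both arrays, so no ratio is given for them. The part of this imbalance in the spread of Ndrg1, and in every ratio given here, was not tested.

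**Figure D2:**
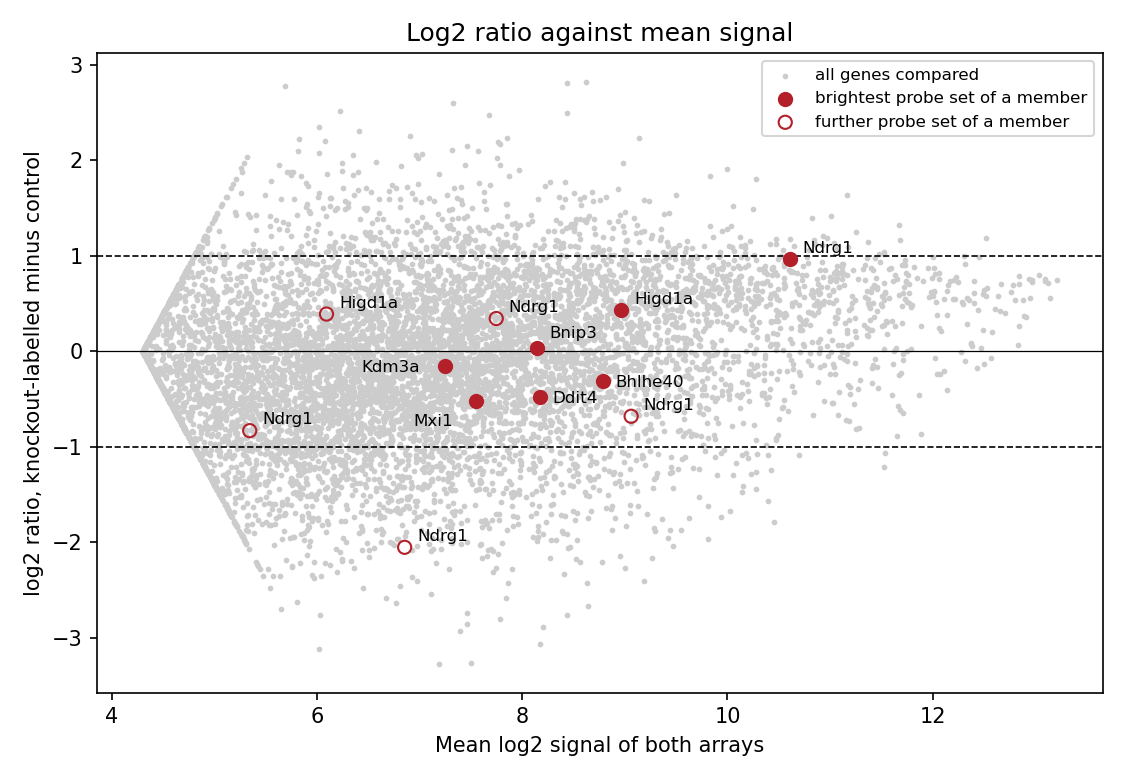
Log2 ratio (knockout-labelled minus control) against the mean log2 signal of both arrays for the 8593 genes compared (grey), with the brightest probe set of each of the 7 genes (filled red) and their further measured probe sets (open red). Dashed lines mark 2-fold. Filled points lie inside the lines, and 1 open point, of Ndrg1, lies at -2.05.

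Read against all genes, the 7 stood near the middle. Among 8593 genes that cleared the floor on either array, 6.21% were 2-fold or more higher and 13.0% were 2-fold or more lower at their brightest probe set, where none of the 7 was either. At 1.5-fold, 1 of the 7 was higher (Ndrg1) and none lower, beside 18.5% and 26.4% of all genes. Of their 12 measured probe sets 1 was 2-fold or more lower and none 2-fold or more higher, beside 13.9% and 6.84% of 13284 measured probe sets. The median log2 ratio of the 7 genes was -0.15 and that of all genes compared was -0.10. By any amount 4 of the 7 were lower, and 55.3% of all genes were. Without Ndrg1 the median of the other 6 was -0.23.

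Log2 ratios on these arrays differed with signal. From the dimmest to the brightest of 5 groups of about equal number, the medians were -0.24, -0.36, -0.19, -0.002 and 0.31. Beside the median of the group in which its signal lies, Bhlhe40 was lower by 0.62, Mxi1 was lower by 0.52 and Ddit4 was lower by 0.47 on the log2 scale. Kdm3a and Bnip3 each lay 0.04 above their group, Higd1a lay 0.13 above and the brightest probe set of Ndrg1 lay 0.66 above. Thus 3 of the 7 were below genes of like signal, each by less than the probe set SD of 0.64.

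**Figure D3:**
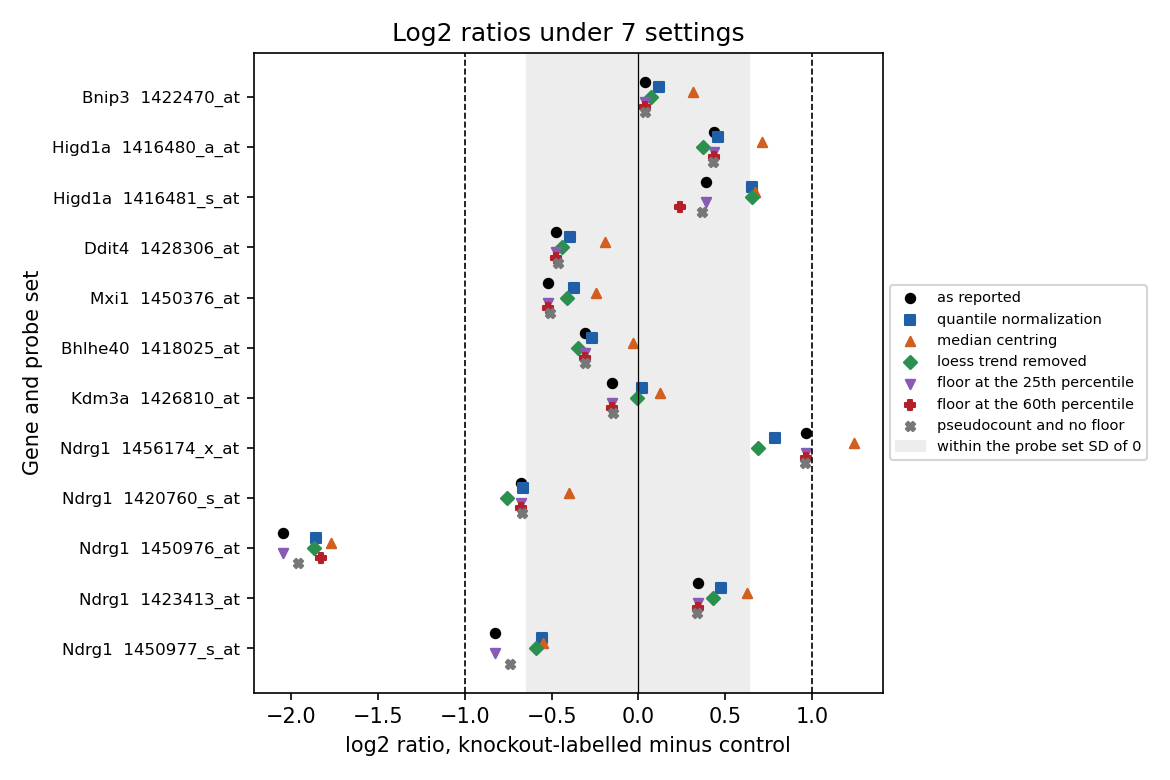
Log2 ratio (knockout-labelled minus control) of the 12 measured probe sets as reported and under 6 other settings for scaling and floor; grey marks the probe set SD of 0.64 on either side of 0 and dashed lines mark 2-fold. The brightest probe set of Ndrg1 passes 2-fold under median centring, and Kdm3a is the gene whose sign turns.

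The factors that could drive these genes were in part measured. Hif1a was brighter on the knockout-labelled array, with signals of 721 and 1544 (log2 ratio 1.10) and further probe sets at 1.38 and 0.52. Epas1 gave 59.4 and 78.1 (0.39), and Rac1 gave 1038 and 757 (-0.46) with 664 and 332 at its next. A probe outside a deleted part does not check the genotype. Of 8 HIF subunits, hydroxylases and cofactors compared, Hif1a alone was past 2-fold, and higher (median log2 ratio -0.07). Of all genes 6.21% were higher and 13.0% lower past 2-fold. With quantile normalization or loess removal none of the 8 was past 2-fold, and the median was 0.10 and 0.08. Quantile normalization gave 8.22% of all genes higher and 9.54% lower, and loess removal 7.61% and 9.92%. Egln3, an oxygen-sensing hydroxylase that is itself a HIF target, gave signals of 27.3 and 31.5 (0.20), and was picked after its value was seen. The partner Arnt and the ubiquitin ligase component Vhl were below the floor on both arrays, and were picked in the same way.

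Other hypoxia-responsive genes outside glycolysis, in a list that leaves the 9 out, had log2 ratios from -2.07 to 1.04. Past 2-fold there were 6 lower and 1 higher among 33 compared, and the median log2 ratio was -0.08. Of all genes 13.0% were lower and 6.21% higher past 2-fold, and their median was -0.10. Hilpda, a lipid droplet protein that blocks fat breakdown, had signals of 115 and 31.3 (log2 ratio -1.87). Plod1 (-2.07), which modifies collagen, and the secreted factors Adm (-1.62) and Pdgfb (-1.59) were also lower. The collagen prolyl hydroxylases P4ha1 (-1.21) and P4ha2 (-1.24) complete the 6. The 1 higher gene was the lipoprotein receptor Vldlr (1.04), whose further probe sets ran from -0.10 to 1.29. The classical target Car9 was below the floor on both arrays, with signals of 9.75 and 8.89. P4ha1, P4ha2, Vldlr and Car9 were picked after their values were seen.

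The nearest relatives of the 7 genes did not share a direction. Among 11 paralogs compared, 1 was past 2-fold higher and 1 past 2-fold lower, and the median log2 ratio was 0.03. The shares of all genes were 6.21% higher and 13.0% lower. Jmjd1c, a relative of Kdm3a, had signals of 245 and 639 (1.38), whereas Kdm3b, its closer relative, had 237 and 181 (-0.39). Higd1b, a relative of Higd1a known from pericytes, read 51.9 in controls and was below the floor on the other array, at least 2.63-fold lower. Ndrg2 (0.03), Ndrg3 (-0.28) and Ndrg4 (0.21) all lay within the probe set SD of 0 at their brightest probe sets, as did Ddit4l (-0.07). Bhlhe41 was below the floor on both arrays. Those within the SD, with Kdm3b and Bhlhe41, were picked after their values were seen.

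Around Bnip3, which differed little itself, the signals of several genes for autophagosome proteins of mitophagy were lower. Past 2-fold, 5 of 17 partners compared were lower and 1 was higher, and the median log2 ratio was -0.48. Over all genes 13.0% were lower and 6.21% higher, and the median was -0.10. With quantile normalization, median centring or loess removal 4 were lower, beside 9.54%, 7.79% and 9.92% of all genes. Without _s_at and _x_at probe sets 7 were lower, beside 15.4% of all genes. Gabarap (signals 1128 and 234, log2 ratio -2.27), Map1lc3a (-1.86) and Gabarapl2 (-1.76) are proteins of the autophagosome membrane that mitophagy receptors bind, and Sqstm1 (-1.99) is a cargo receptor. The other one lower was Fkbp8 (-1.09). The mitophagy receptor Fundc1, the higher one, had log2 ratios of 1.42 (brightest) and -0.36, and Map1lc3b gave 0.48 with others from -1.16 to 0.34. These last 3 were picked after their values were seen.

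Around Ddit4, genes of the mTORC1 branch went both ways. Past 2-fold, 3 of 16 compared were lower and 2 were higher (median log2 ratio 0.16), where median centring gave 3 lower and 4 higher. The shares of all genes were 13.0% lower and 6.21% higher as reported, and 7.79% and 13.3% with median centring. Tsc2, the GTPase activator through which Ddit4 acts, had signals of 79.0 and 23.3 (-1.76), while its partner Tsc1 had 139 and 240 (0.78). Rraga, a GTPase that signals amino acids to mTORC1, was lower (-1.53). Akt1 had log2 ratios of -1.42 (brightest) and -0.02. The stress sensor Sesn1 was higher at its brightest (1.06), with others from -0.51 to 0.15, and Lamtor1 gave 1.05 with others from -0.91 to 1.23. Mtor itself differed little (-0.14). Tsc1, Lamtor1 and Mtor were picked after their values were seen.

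Around Mxi1, genes of the MYC and MAX network lay on both sides, 7 higher and 5 lower by any amount. The partner Max and the opponent Myc of Mxi1 were among the lower. Past 2-fold, 2 of 12 genes of the MYC and MAX network were lower and none was higher (median log2 ratio 0.15). Of all genes, 13.0% were lower and 6.21% higher, with a median of -0.10. With quantile normalization or loess removal 1 of the network was higher beside the 2 lower. Of all genes 8.22% were higher and 9.54% lower with the first, and 7.61% and 9.92% with the second. With median centring 2 were higher and 1 was lower, where 13.3% and 7.79% of all genes were. Max, the shared partner, had signals of 89.7 and 36.5 (-1.30), and Myc had 488 and 234 (-1.06). Each rests on 1 measured probe set, as Mxi1 does.

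Around Bhlhe40, genes of the circadian clock lay on both sides, 7 lower and 5 higher by any amount, with the activator Clock highest. Past 2-fold, 3 of 12 compared were lower and 1 was higher (median log2 ratio -0.52), but 1 was lower and 2 were higher with median centring. All genes gave 13.0% lower and 6.21% higher as reported, and 7.79% and 13.3% with median centring. The repressors Cry2 (signals 59.3 and 23.0, -1.37) and Per2 (-1.06) and the output regulator Nfil3 (-1.06) were lower. Clock had signals of 59.0 and 161 (1.45) and gave 1.28 at its other probe set. The labels do not say at what time of day the uteri were taken. Among 11 JmjC demethylases around Kdm3a, Jmjd1c alone was past 2-fold, and higher (median 0.26), where 6.21% of all genes were higher and 13.0% lower.

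**Figure D4:**
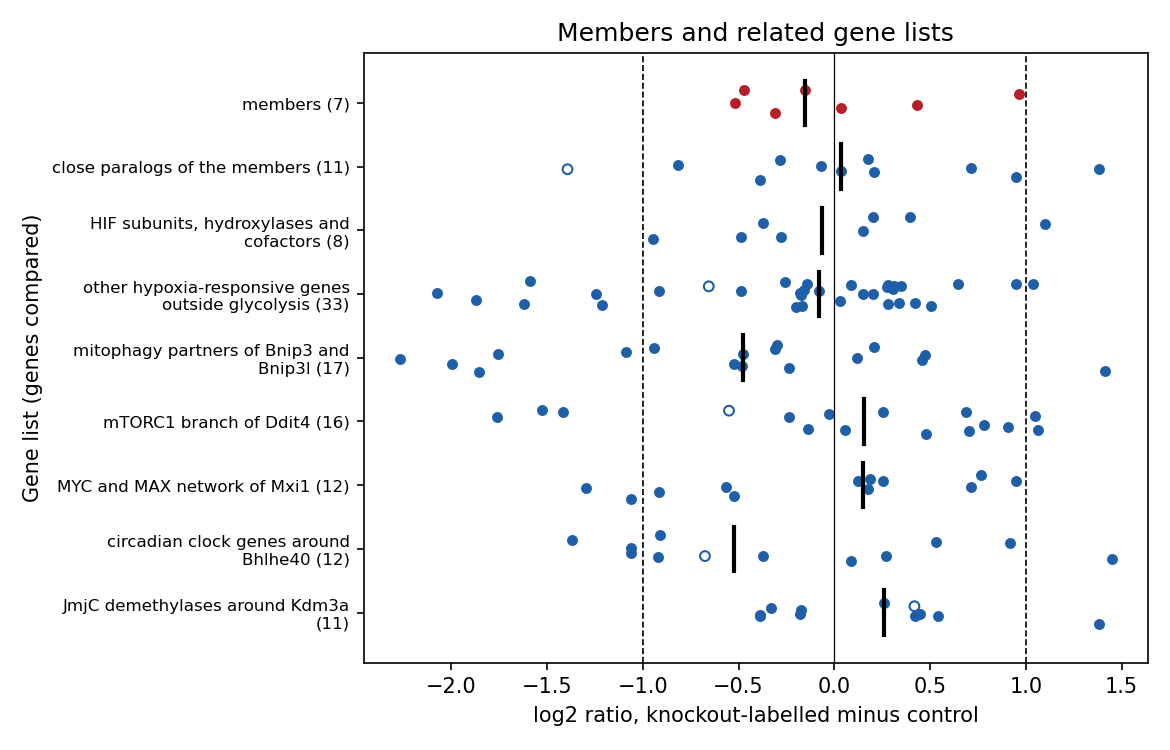
Log2 ratio (knockout-labelled minus control) of the genes compared in each list, 1 point per gene at its brightest probe set, with open points for genes at the floor on 1 array, black bars for medians and dashed lines at 2-fold. The 7 genes (red) lie between the dashed lines, and each related list has at least 1 gene outside them.

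Both arrays carried the stromal genes, and markers of other cell types were also above the floor. Of 12 stroma markers 11 were above the floor on the control array and 12 on the other, with a summed signal of 19338 and 25020, led by Vim (log2 ratio 0.66) and Dcn (0.65). By any amount 6 were higher and 6 lower (median 0.0004), and the 1 past 2-fold was Hoxa11, lower at -1.85, named after its value was seen. Endothelial markers were lower on the knockout-labelled array (6 of 10 past 2-fold, summed signal 3466 and 1619), the brightest being Esam (log2 ratio -1.23) and Cdh5 (-1.12). So were 6 of 11 myeloid markers, with 2 past 2-fold higher (4167 and 3608, led by Csf1r at a log2 ratio of 0.44 and Lyz2 at -1.23), and 4 of 8 smooth muscle and pericyte markers (11334 and 11475, a sum led by Acta2 and Rgs5, which were higher). The further probe sets of Csf1r ran from -0.88 to 0.13. The 2 higher myeloid markers were Ptprc (1.74) and C1qb (1.58), and the further probe sets of C1qb ran from -2.68 to 0.54. Both were named after their values were seen. Of 11 epithelial markers compared, 3 were lower and 1 higher past 2-fold (2425 and 1990, led by Krt8 at 0.64 and Krt18 at -2.20). Of 9 lymphocyte and NK cell markers, 3 were lower and 1 higher past 2-fold, and 7 were lower by any amount (938 and 732, led by Gzma at -0.45 and Klrd1 at 1.21). Beside all these marker counts, 13.0% of all genes were 2-fold or more lower and 6.21% were 2-fold or more higher. The 4 erythroid markers with a probe set were below the floor on both arrays. In such RNA of mixed cells, fewer cells of a type and less RNA per cell cannot be told apart. The part of these cells in the values of the 7 genes was not tested.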

How the data were processed

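Per the submitters' processing notes, the authors ran MAS5 (Affymetrix Expression Console version 1). What they deposited is an intensity per probe set, not on a log scale, and their scaling was kept (trimmed mean 150.1 on both arrays, 2% taken off each end). The control array had 13828 and the knockout-labelled array 13423 of 22690 probe sets above the floor of 19.7. Groups were taken from the sample titles.

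Symbols were updated through Entrez identifiers in a RefSeq table of GRCm38.p6 (20351 of 20380 probe sets). A gene took the probe set with the highest mean log2 signal, and genes below the floor on both arrays were left out. Named genes are all probe sets of the 9 genes, the 3 genes the labels name, and, of each of 8 related lists, up to 4 genes past 2-fold with the largest log2 ratio. Others are said to be picked after their values were seen. Members and the 15 lists (7 of them cell markers) were chosen with earlier results of these data known. Alternatives were quantile normalization, median centring over all probe sets of an array, removal of a loess trend (span 0.4), a lower or higher floor (25th and 60th percentile), no floor with a pseudocount at the 20th percentile (4.70), the median over probe sets, no _s_at or _x_at probe sets, and size rules of 1.5-fold and 3-fold. The counting and scaling steps were tested on simulated data. Python 3.11.15, numpy 2.4.6, pandas 2.3.3 and statsmodels 0.14.6 were used.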

Additional observations from a re-analysis of the deposited data

How the results depend on the processing

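With 1 array per group, no replicate could be left out. No paired analysis was possible because each group has 1 array. None of the 7 genes was past 2-fold at its brightest probe set as reported, after quantile normalization, after loess removal, with either other floor, with a pseudocount, over the median of probe sets, without _s_at and _x_at probe sets, or at 3-fold. The count among the 7 genes was 1, Ndrg1 (higher), under median centring and at 1.5-fold. Of all genes 13.3% were higher and 7.79% lower under median centring, and 18.5% and 26.4% at 1.5-fold. The median log2 ratio of the 7 genes, -0.15 as reported, turned to 0.018 with quantile normalization and 0.13 with median centring. These settings moved the median of all genes from -0.10 to 0.03 and 0.16, so the 7 lay -0.01 and -0.03 from it, beside -0.05 as reported. Over the settings run they lay from -0.14 (median over probe sets, where the median of the 7 was -0.31) to 0.05 (without _s_at and _x_at probe sets) from it. The share of higher genes among all those past 2-fold was 32.3% as reported, 46.3% with quantile normalization, 63.1% with median centring and 43.4% with loess removal. Of 71 alternative values of single probe sets, 71 moved by less than the probe set SD and 2 changed sign, both of Kdm3a. The other floors left most of these values unchanged and median centring shifted all by the same amount. The settings thus left single values little room to move. Probe set 1450976_at of Ndrg1 stayed between -2.05 and -1.77.

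The medians of the mitophagy, clock, epithelial, endothelial, myeloid, lymphocyte and smooth muscle lists were below that of all genes under all settings run. The JmjC median turned from 0.26 to -0.17 with the median over probe sets and without _s_at and _x_at probe sets, and that of the MYC and MAX network from 0.15 to -0.18 with the median over probe sets and -0.02 with the floor at the 60th percentile. The mTORC1 median turned from 0.16 to -0.08 without _s_at and _x_at probe sets, but it lay 0.12 to 0.27 above that of all genes under all settings run. That of the paralogs turned from 0.03 to -0.35 with the median over probe sets and -0.07 without _s_at and _x_at probe sets. The HIF median turned from -0.07 to 0.21 with median centring, 0.10 with quantile normalization and 0.08 with loess removal. It was 0.15 with the floor at the 25th percentile and 0.18 with a pseudocount. That of the other hypoxia-responsive genes turned from -0.08 to 0.20 with median centring and 0.03 with quantile normalization or loess removal. Median centring left 4 of the other hypoxia-responsive genes lower and 2 higher past 2-fold, beside 6 and 1. Of all genes 7.79% were lower and 13.3% higher under that setting. The stroma median ran from -0.18 to 0.21. Precision is limited by having 2 arrays, and a probe set below the floor does not show that a gene is silent.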
